A study of Mus musculus with 12 samples.

Results

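The NRF2 and glutathione antioxidant genes described here are 10 genes taken by their mouse symbols out of 54838 genes in the count tables. They are Nfe2l2, Keap1, Nqo1, Gclc, Gclm, Txnrd1, Srxn1, Prdx1, Gpx3 and Gpx4. The rule that takes them uses no measured value, but the choice was made with earlier results of these data known. Comparisons of these genes with all genes are therefore descriptions. All 10 passed the filter on low counts that left 31109 genes for testing. RNA was sequenced from the spinal cord of mice at postnatal day 60, in 4 groups of 3 libraries each. The control mice were Olig1+/+;Tet1fl/fl, so that they carried the floxed Tet1 alleles without cre, and the Tet1 mutant mice were Olig1cre/+;Tet1fl/fl, so that 1 Olig1 allele held the cre. Each genotype gave lesioned tissue, taken 4 days after lysolecithin (LPC), which strips myelin where it is injected, had been put into the cord (4dpl), and unlesioned tissue of the contralateral side. The cre acts in cells with a history of Olig1 expression, from development on, while the preparation was enriched for oligodendroglial cells by a Percoll density gradient without sorting, so that every value is a mean over several cell types. No source used here ties a library to a single mouse or to a pool, and the p-values then measure only the spread between these libraries.

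NRF2, the product of Nfe2l2, is a transcription factor that switches on detoxifying and antioxidant enzymes. KEAP1 holds it in the cytoplasm and passes it on for degradation until oxidants or electrophiles modify KEAP1, and freed NRF2 then binds, with a small MAF protein, to antioxidant response elements. In the nervous system the pathway is best known in astrocytes and microglia, and glutathione, whose synthesis it controls, is a main defence of cells against peroxides. Oligodendrocytes, rich in lipid and iron, are known to be sensitive to oxidants.

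The core of the antioxidant response element, TGACNNNGC on either strand, was looked for in RefSeq windows of 250 bases before to 50 bases after each gene's start (GRCm38.p6). The table held a window for 9 of the 10 genes, and 5 of the 9 had the core, against 14.0% of all 27025 genes with a window. The stretches around these cores are shown because they are the letters through which NRF2 is known to act, with the core in capitals and read 5′ to 3′ on the strand of the gene.
Nfe2l2: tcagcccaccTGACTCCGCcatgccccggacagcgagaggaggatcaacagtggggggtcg
Gclm: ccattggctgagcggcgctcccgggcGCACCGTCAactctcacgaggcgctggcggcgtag
Txnrd1: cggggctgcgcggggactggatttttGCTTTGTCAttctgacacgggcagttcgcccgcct
Srxn1: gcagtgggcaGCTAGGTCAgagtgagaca
Prdx1: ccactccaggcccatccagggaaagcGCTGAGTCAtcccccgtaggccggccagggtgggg
The Nfe2l2 stretch lies at chr2:75704853-75704913 on the minus strand, and its core began 240 bases before the start. The other 4 lie on the plus strand and hold the core as its reverse complement. These are Gclm at chr3:122245397-122245457, Txnrd1 at chr10:82859088-82859148, Srxn1 at chr2:152105542-152105570 and Prdx1 at chr4:116685440-116685500. Their cores began 134, 92 and 133 bases before the start in Gclm, Txnrd1 (at one of its 3 starts in the table) and Prdx1, and 28 bases after the start in Srxn1. The letters TGANTCA, which AP-1 factors bind and which read the same on both strands, were present in the windows of Srxn1 and Prdx1, against 8.97% of genes, and overlapped the core in Prdx1. The windows of Keap1, Nqo1, Gpx3 and Gpx4 held neither run of letters. A match describes the sequence only.

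Levels are given as CPM, counts scaled to library size with TMM factors, and a gene was called at a p-value under 0.01 with a Benjamini-Hochberg adjusted p-value under 0.05 in edgeR's quasi-likelihood test over all 31109 genes. Total counts ranged from 34805086 to 67251544 per library, and the number of libraries, not the depth, limits the precision. The gene-level count of Tet1 did not separate the genotypes, with a log2 difference, mutant minus control, of -0.33 (SE 0.27) unlesioned and 0.34 (SE 0.27) at 4dpl, and the genotype is that of the labels throughout. Unlesioned libraries had counts on 40023 to 44516 genes and 4dpl libraries on 33964 to 37516, and the median log2 fold change after lesion over all genes was -0.28. Markers of other cells were present in every library and none was at 0. The summed level of 8 macrophage markers was 10400 to 18280 CPM in control unlesioned, 22300 to 29870 in control 4dpl, 6958 to 18150 in mutant unlesioned and 12630 to 28380 in mutant 4dpl libraries, and that of 8 microglial markers was 2376 to 4802, 7884 to 13410, 2761 to 8899 and 8023 to 12260. Lyz2 had the highest level of the 8 macrophage markers in every library, so that it weighs most in their sum. In the mutant Ms4a7, Cd68, Gpnmb and Arg1 were higher at 4dpl without overlap. Lyz2, Mrc1, Ccr2 and F13a1 overlapped there. Averaged over the genotypes, 5 of the 8 macrophage and 6 of the 8 microglial markers were called higher after lesion. The sum of 7 astrocyte markers was higher at 4dpl without overlap in both genotypes, at 192.2 to 216.1 against 323.5 to 602.7 CPM in the control and 230.1 to 293.4 against 330.7 to 613.1 CPM in the mutant, with 2 of the 7 called. In the control, sums of 8 oligodendrocyte markers (16500 to 20760 against 23650 to 34600 CPM) and 6 fibroblast and pericyte markers (20.99 to 28.8 against 57.88 to 119.7 CPM) were also higher at 4dpl without overlap, and that of 6 neutrophil markers was lower (40840 to 87450 against 25230 to 30590 CPM), while in the mutant these sums overlapped. In the mutant the sum of 8 immediate early genes was higher without overlap (7476 to 8611 against 10170 to 11840 CPM). Their part in the results below was not tested, and in such tissue fewer cells of a type and less RNA per cell cannot be told apart. The library control unlesioned replicate 1 stood apart for these genes. It was the highest of its group for 8 of the 10, against 36.2% of all genes, and over 1.5 times the next library for 5 of them, against 15.5%. These 5 were Srxn1 (3.56 times), Txnrd1 (2.88), Gclc (2.69), Gclm (1.78) and Keap1 (1.69). The counts of calls after lesion are given with and without it, and so are single values where stated.

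The first question was how the genes stood after demyelination. Averaged over both genotypes, 5 of the 10 were called, all higher at 4dpl, where 14.2% of all genes tested were called higher and 18.6% lower. These were Gpx3, Srxn1, Prdx1, Txnrd1 and Nfe2l2. The log2 fold change was above 0 for 9 of the 10, against 41.6% of all genes, with a median of 0.54. All such shares include genes with low counts. The median of all genes over both genotypes was -0.28, and 0.0039 in the fit to genes with at least 10 counts in every library. In the control alone Gpx3 and Prdx1 were called, where 5.12% of genes were called higher and 5.01% lower, and in the mutant alone Gpx3 was called, where 0.0225% of genes were called higher and 0.113% lower. In the mutant all 10 had a log2 fold change above 0, against 45.0% of all genes, and all 10 passed an unadjusted limit of 0.05, where 15.9% of all genes did so with a higher level. In the control 8 of 10 were above 0, against 39.1%, and Gclc and Gclm were not. With control unlesioned replicate 1 left out, the numbers called were 6 over both genotypes, 6 in the control and 8 in the mutant, where 17.7%, 12.2% and 7.72% of all genes were called higher.

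**Figure D1:**
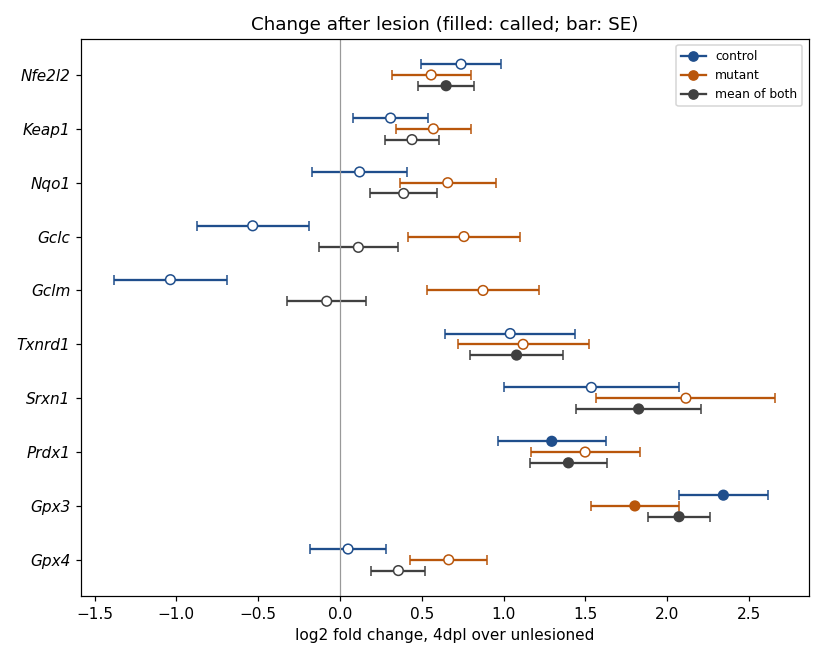
Log2 fold change at 4dpl over unlesioned for each gene in the control, in the mutant and as the mean of both, with bars of 1 SE from the edgeR fit to 12 libraries and filled points for called genes. Gpx3 is filled in all 3 comparisons, while Gclc and Gclm lie below 0 in the control and above 0 in the mutant.

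Among the regulators, Nfe2l2 rose over both genotypes while Keap1 was not called. Nfe2l2 (ENSMUSG00000015839), on chromosome 2 from 75675513 to 75704641, encodes NRF2 itself. It was at 219.9, 124 and 152 CPM in the control unlesioned libraries and at 296, 266 and 265 CPM at 4dpl. In the mutant it was at 162, 166 and 149 CPM unlesioned and at 247, 259 and 195 CPM at 4dpl. Every 4dpl library lay above every unlesioned library of its genotype, which held in both genotypes for 11.0% of all genes, in the control for 16.5% and in the mutant for 18.8%. On the log2 scale the fold change was 0.65 (SE 0.17, adjusted p = 0.0117) over both genotypes, 0.74 (SE 0.24, adjusted p = 0.0618) in the control and 0.56 (SE 0.24, adjusted p = 0.128) in the mutant. Leaving out control unlesioned replicate 1 made it 1.03 in the control (adjusted p = 0.00747). The call over both genotypes was lost when only genes with at least 10 counts in every library were kept (0.37, adjusted p = 0.0842). It was also lost with the replicate number in the file headers as a block.

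Keap1 (ENSMUSG00000003308), on chromosome 9 from 21229730 to 21239361, encodes the adaptor that marks NRF2 for degradation. Its level was 58.5, 33.6 and 34.7 CPM in the control unlesioned libraries and 50.2, 54.1 and 52.8 CPM at 4dpl, and the groups overlapped through unlesioned replicate 1 alone. In the mutant it was 41.1, 36.1 and 32.9 CPM unlesioned and 56.3, 47.7 and 59.5 CPM at 4dpl, without overlap. The log2 fold change over both genotypes was 0.44 (SE 0.16), with a p-value of 0.0172 above the limit and an adjusted p of 0.044. Without control unlesioned replicate 1 it was 0.62 (adjusted p = 0.00279). Keap1 was at 0.31 in the control, or 0.64 without that library, and at 0.57 in the mutant. The antisense gene Gm16754, which overlaps Keap1, held 357 counts over all libraries against 27923 for Keap1.

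Glutathione is made from glutamate, cysteine and glycine, and its rate-limiting step is carried out by glutamate-cysteine ligase, of which Gclc encodes the catalytic and Gclm the modifier subunit. Neither subunit was called after lesion in either genotype in the edgeR fit to all 12 libraries. Gclc (ENSMUSG00000032350), on chromosome 9 from 77754535 to 77794485, was at 57.8, 21.5 and 21.5 CPM in the control unlesioned libraries and at 22.8, 21.4 and 25.4 CPM in control 4dpl. Apart from unlesioned replicate 1 these 5 control libraries all lay between 21.4 and 25.4 CPM. Mutant libraries held Gclc at 39.8, 42.1 and 31.7 CPM unlesioned and at 55.1, 52.9 and 84.1 CPM at 4dpl, without overlap.

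Gclc had a log2 fold change after lesion of -0.53 (SE 0.34, adjusted p = 0.273) in the control and 0.76 (SE 0.34, adjusted p = 0.138) in the mutant. When control unlesioned replicate 1 was left out the control value changed sign to 0.14 (SE 0.23, adjusted p = 0.668), while the mutant value was 0.78 (adjusted p = 0.0363) and called. Gclm (ENSMUSG00000028124), on chromosome 3 from 122245557 to 122270732, was at 159.6, 89.9 and 48.5 CPM in the control unlesioned libraries and at 62.9, 46.5 and 35.9 CPM in control 4dpl, with overlap. Its mutant levels were 67.3, 72.9 and 60.7 CPM unlesioned and 125.5, 131 and 111 CPM at 4dpl, and every 4dpl library was the higher. Its log2 fold change was -1.04 (SE 0.34, adjusted p = 0.0634) in the control and 0.87 (SE 0.34, adjusted p = 0.105) in the mutant, neither of them called. The fall in the control was called with DESeq2 (-1.09, adjusted p = 0.0191) and with at least 10 counts in every library (-1.27, adjusted p = 0.038). It was also called with edgeR's newer quasi-likelihood option (-1.04, adjusted p = 0.0465) and with a limit of 0.10 on the adjusted p. A replicate block by the number of the labels gave the call as well. With 1 library left out it was called in no fit, from -1.36 (adjusted p = 0.0598) without control unlesioned replicate 3 to -0.49 without control unlesioned replicate 1. Leaving the latter library out gave -0.49 (adjusted p = 0.194) and 0.90 (adjusted p = 0.0394), the latter called. Reads of Gm17494, which overlaps Gclm on the other strand, came to 1311 counts against 49876 for Gclm.

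The thioredoxin and peroxiredoxin genes Txnrd1, Srxn1 and Prdx1 all rose over both genotypes. Their products serve the reduction of hydrogen peroxide by protein thiols. Txnrd1 (ENSMUSG00000020250), on chromosome 10 from 82833951 to 82897712, encodes the cytosolic thioredoxin reductase, a selenoprotein. It was at 157, 54.4 and 51.9 CPM in control unlesioned and at 233, 187 and 120.2 CPM in control 4dpl libraries, and unlesioned replicate 1 alone made the groups overlap. Mutant libraries were at 64.6, 67 and 58.4 CPM unlesioned and at 169, 152 and 91.8 CPM at 4dpl, without overlap. Over both genotypes the log2 fold change was 1.08 (SE 0.28, adjusted p = 0.0112). It was 1.04 (adjusted p = 0.092) in the control, or 1.79 (adjusted p = 0.00384) without control unlesioned replicate 1, and 1.12 (adjusted p = 0.0873) in the mutant. Of the 3 annotated genes that overlap Txnrd1, the largest had 1044 counts over all libraries against 70766.

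Srxn1 (ENSMUSG00000032802), on chromosome 2 from 152105516 to 152111376, encodes sulfiredoxin, which repairs over-oxidised peroxiredoxins. It was at 55.6, 15.6 and 10.5 CPM in control unlesioned and at 123, 69.9 and 43.6 CPM in control 4dpl libraries. Mutant libraries were at 15.7, 11.7 and 8.83 CPM unlesioned and at 69, 53.3 and 34.5 CPM at 4dpl. The mutant groups did not overlap, and the control groups overlapped again through unlesioned replicate 1 only. Srxn1 had a log2 fold change of 1.83 (SE 0.38, adjusted p = 0.00509) over both genotypes, 1.54 (SE 0.54, adjusted p = 0.0721) in the control and 2.11 (SE 0.55, adjusted p = 0.055) in the mutant. Without that library the control value was 2.62 (adjusted p = 0.0036) and the mutant value 2.14 (adjusted p = 0.0314), both called, and without mutant unlesioned replicate 1 the mutant value was also called (2.38, adjusted p = 0.0414).

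Prdx1 (ENSMUSG00000028691), on chromosome 4 from 116685544 to 116700822, encodes an abundant cytosolic peroxiredoxin, the peroxidase that thioredoxin and sulfiredoxin keep active. It was at 759, 471 and 620.1 CPM in control unlesioned and at 2122, 1480 and 936 CPM in control 4dpl libraries. Mutant libraries held 444, 289 and 367 CPM unlesioned and 1193, 1017 and 896 CPM at 4dpl. No 4dpl library of either genotype fell to the level of an unlesioned one. Prdx1 had a log2 fold change of 1.40 (SE 0.23, adjusted p = 0.00282) over both genotypes, 1.29 (SE 0.33, adjusted p = 0.0367) in the control and 1.5 (SE 0.33, adjusted p = 0.0522) in the mutant. The call in the control was lost without control unlesioned replicate 2 (1.15) or 3 (1.31), control 4dpl replicate 1 (0.99) or 2 (1.33), or mutant unlesioned replicate 3 (1.31). It was also lost with at least 10 counts in every library and in a fit to the groups compared only. Without mutant unlesioned replicate 1 or control unlesioned replicate 1 the mutant value was called (1.69 and 1.52).

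**Figure D2:**
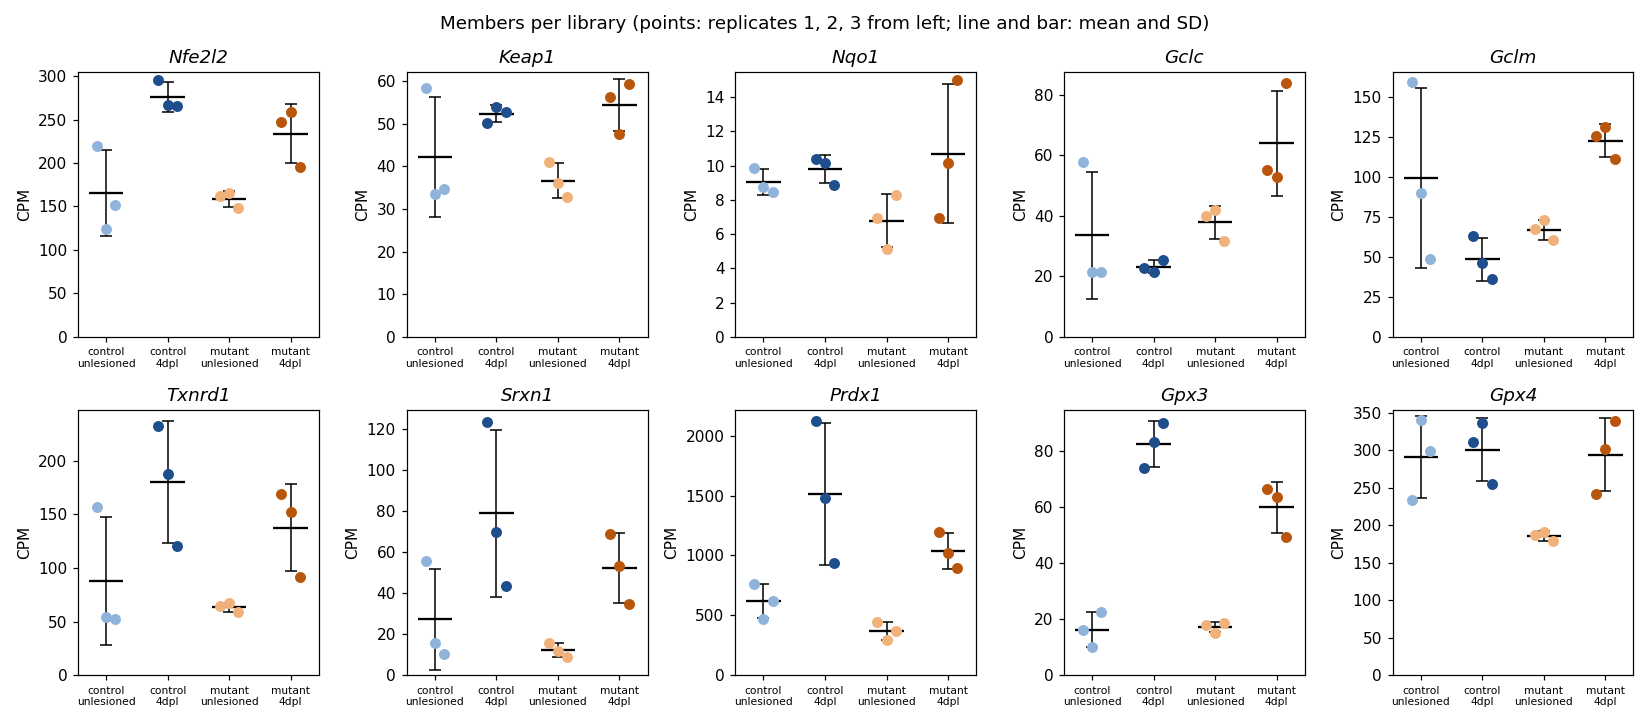
CPM of each gene in every library, on axes that start at 0, with the 3 points of a group in the order of replicates 1 to 3 and the line and bar for the mean and SD of a group. Gpx3 and Prdx1 show no overlap between unlesioned and 4dpl libraries of a genotype, and control unlesioned replicate 1 lies far above the other libraries of its group for Gclc, Txnrd1 and Srxn1.

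Nqo1 (ENSMUSG00000003849), on chromosome 8 from 107388225 to 107403206, encodes a quinone reductase and is often read as the standard target of NRF2. It was called in no comparison of the edgeR fit to all 12 libraries. Its level was 9.88, 8.73 and 8.44 CPM in control unlesioned and 10.4, 10.2 and 8.84 CPM in control 4dpl libraries. Mutant libraries were at 6.95, 5.16 and 8.27 CPM unlesioned and at 6.96, 10.2 and 15 CPM at 4dpl. The groups overlapped in both genotypes, and the highest value belonged to mutant 4dpl replicate 3. Over both genotypes it had a log2 fold change of 0.39 (SE 0.21, adjusted p = 0.137), beside 0.12 (SE 0.29) in the control and 0.66 (SE 0.29) in the mutant.

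The glutathione peroxidases differed from each other. Gpx3, which encodes the secreted plasma form, rose in both genotypes, and Gpx4, which reduces lipid peroxides within membranes and restrains ferroptosis, was not called. Gpx3 (ENSMUSG00000018339), on chromosome 11 from 54902453 to 54910377, was at 16, 10.2 and 22.7 CPM in control unlesioned and at 74.2, 83.4 and 90.4 CPM in control 4dpl libraries. Mutant libraries were at 18, 15.2 and 18.5 CPM unlesioned and at 66.7, 63.8 and 49.6 CPM at 4dpl. The lowest 4dpl library of either genotype was above 2 times the highest unlesioned library. Gpx3 had a log2 fold change of 2.07 (SE 0.19, adjusted p = 0.00089) over both genotypes, 2.34 (SE 0.27, adjusted p = 0.0161) in the control and 1.80 (SE 0.27, adjusted p = 0.0445) in the mutant. The mutant value lost its call, at values from 1.73 to 1.95, without control 4dpl replicate 2, mutant unlesioned replicate 2 or 3, or any one of the mutant 4dpl replicates. It was also lost when replicates were fitted as a block, by the number of the labels or by that in the file headers. The control value kept its call under every alternative run.

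Gpx4 (ENSMUSG00000075706), on chromosome 10 from 80047166 to 80056439, was at 233, 341 and 298 CPM in control unlesioned and at 311, 336 and 255 CPM in control 4dpl libraries. Mutant libraries were at 187, 191 and 178 CPM unlesioned and at 242, 301 and 339 CPM at 4dpl. The control groups overlapped and the mutant groups did not. The log2 fold change was 0.05 (SE 0.23, adjusted p = 0.894) in the control, with a sign that turned under several alternatives, and 0.66 (SE 0.23, adjusted p = 0.0855) in the mutant. Without the same unlesioned replicate 1 it was -0.06 in the control and 0.69 (adjusted p = 0.042) in the mutant, the latter called. The pseudogene Gpx4-ps2, a processed copy, held 7217 counts against 160857, so that a part of the reads of either may belong to the other.

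**Figure D3:**
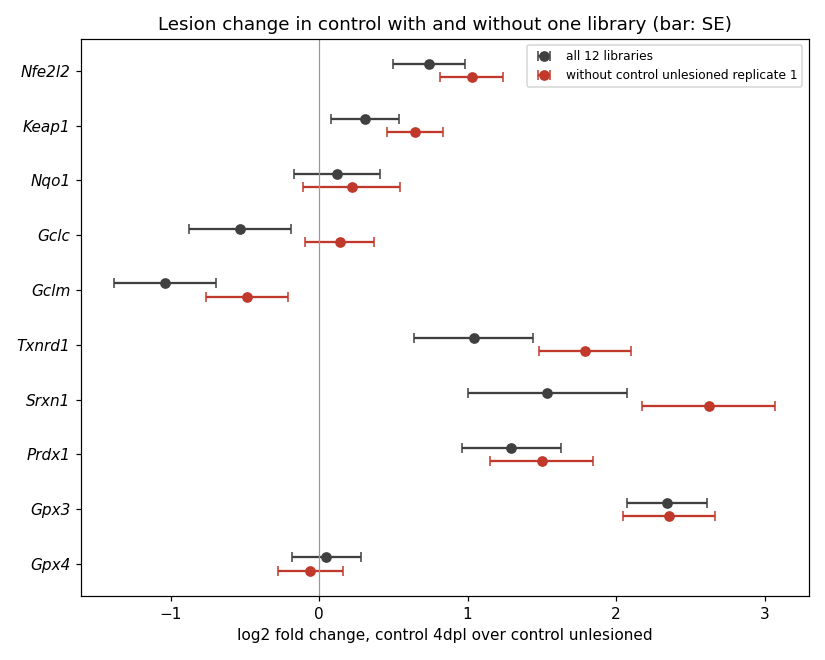
Log2 fold change at 4dpl over unlesioned in the control for each gene, with bars of 1 SE, from all 12 libraries and without control unlesioned replicate 1. Gclc goes from -0.53 to 0.14, Txnrd1 from 1.04 to 1.79 and Srxn1 from 1.54 to 2.62, while Gpx3 stays at 2.34 and 2.36.

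Per kilobase of annotated exon, the mean level in control unlesioned libraries was highest for Prdx1 at 203 ± 47.4 CPM per kb (SD, n = 3), followed by Gpx4 at 169 ± 31.5 (SD, n = 3) and Nfe2l2 at 43.5 ± 13 (SD, n = 3). The ranges of Prdx1 and Gpx4 cannot be told apart by their SDs, and the other 7 genes, from Gclm at 15.8 ± 8.93 to Nqo1 at 5.81 ± 0.49 (SD, n = 3), overlapped with their neighbours in the order. In control 4dpl libraries Gpx3 had moved up to 45.6 ± 4.47 CPM per kb (SD, n = 3), next to Nfe2l2 at 72.7 ± 4.59 (SD, n = 3), and Gclc was lowest at 6.16 ± 0.54 (SD, n = 3), beside Nqo1 at 6.31 ± 0.54 (SD, n = 3). In mutant 4dpl libraries Gclc was at 17 ± 4.62 CPM per kb (SD, n = 3), among Gclm, Txnrd1 and Srxn1 at 19.5, 19.4 and 18.5, and Nqo1 was lowest at 6.90 ± 2.61 (SD, n = 3). Prdx1, Gpx4 and Nfe2l2 were the 3 highest in each of the 4 groups.

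The second question was whether the genotypes differed. In unlesioned cord 0 of the 10 genes were called by edgeR, as for all genes tested, and 0 by DESeq2 or limma voom, which called 0.0900% and 0% of all genes lower. An unadjusted limit of 0.05 was passed by 3 of the 10, as by 5.22% of all genes. All 3 were lower in the libraries labelled mutant. The log2 difference was -0.65 (SE 0.23, adjusted p = 0.787) for Gpx4 and -0.75 (SE 0.33, adjusted p = 0.927) for Prdx1. Both were lower without overlap between the genotypes, a pattern that 6.28% of all genes showed. Nqo1 showed it too (-0.41, SE 0.29) but did not pass the limit. For Srxn1 the difference was -1.17 (SE 0.53, adjusted p = 0.946), and it was -0.11 without control unlesioned replicate 1. Of the summed markers of other cells, those of astrocytes did not overlap between unlesioned libraries of the genotypes and were higher in the mutant, and their part was not tested.

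At 4dpl 0 of the 10 genes were called by edgeR, 2 by DESeq2 and 1 by limma voom. An unadjusted limit of 0.05 was passed by 2 of them, as by 6.92% of all genes. These were the subunits of glutamate-cysteine ligase. Gclc, at 21.4 to 25.4 CPM in the control and 52.9 to 84.1 CPM in the libraries labelled mutant, was 2.76-fold higher in the latter (log2 difference 1.46, SE 0.35, adjusted p = 0.23). Gclm, at 35.9 to 62.9 CPM and 111 to 131 CPM, was 2.54-fold higher (log2 difference 1.34, SE 0.35, adjusted p = 0.275). Neither pair of groups overlapped, as held for 7.34% of all genes with the mutant higher, and for both genes the difference was at least 1.08 on the log2 scale under every alternative that gave a value, which the block by the number in the file headers did not. DESeq2 called both (Gclc 1.42, adjusted p = 0.0181, and Gclm 1.30, adjusted p = 0.0427), where it called 0.649% of all genes higher, and voom called Gclc (1.33, adjusted p = 0.041), where it called 0.109%. In the fit without control unlesioned replicate 1 edgeR called Gclc (1.46, adjusted p = 0.0335), where 0.136% of all genes were called higher, and did not call Gclm (1.34, adjusted p = 0.0661).

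Beside these values, the summed level of 6 fibroblast and pericyte markers at 4dpl did not overlap between the genotypes, at 57.88 to 119.7 CPM in the control and 34.11 to 48.85 CPM in the mutant, while the sums of the other marker lists overlapped. Among these the sums were 23650 to 34600 CPM in the control and 25830 to 69260 CPM in the mutant for 8 oligodendrocyte markers, 25230 to 30590 and 18620 to 93060 CPM for 6 neutrophil markers, and 12100 to 40860 and 27360 to 44340 CPM for 5 erythroid markers. Mutant 4dpl replicate 3, the highest library for Gclc, also held the highest oligodendrocyte, progenitor and astrocyte sums, and without it the log2 difference of Gclc was 1.21. Their part in the difference was not tested. The other 8 genes had log2 differences between -0.60 (Srxn1) and 0.13 (Nqo1), and of these Nfe2l2 and Gpx3 were lower in all 3 mutant libraries than in any control library, as 5.44% of all genes were, with differences of -0.24 (SE 0.24) and -0.46 (SE 0.26).

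**Figure D4:**
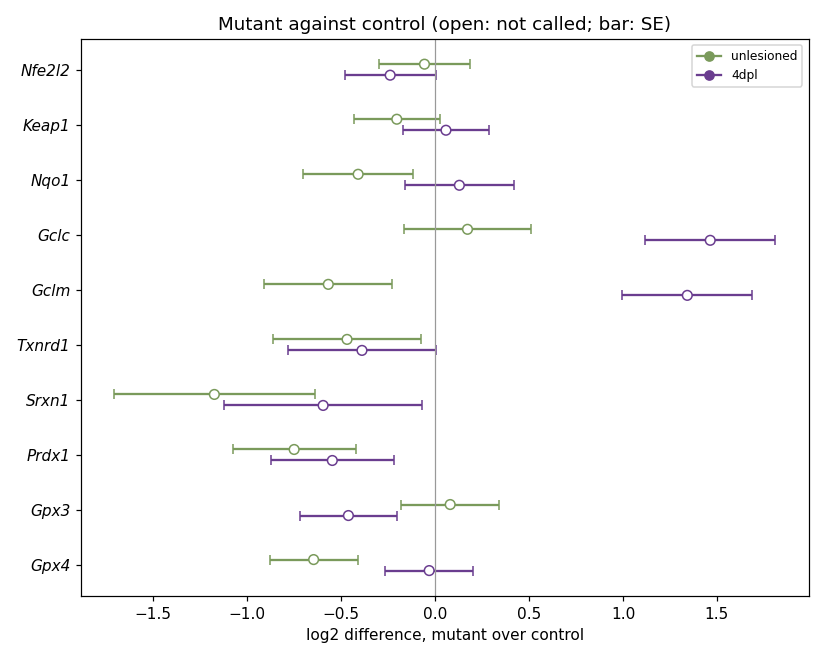
Log2 difference, mutant over control, for each gene in unlesioned cord and at 4dpl, with bars of 1 SE and open points because no gene was called by edgeR. Gclc and Gclm at 4dpl, at 1.46 and 1.34, lie apart from all other points, which stay between -1.17 and 0.17.

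The third comparison set the lesion changes of the genotypes against each other. The interaction, the log2 fold change after lesion in the mutant minus that in the control, was called for 0 of the 10 genes by edgeR, DESeq2 or limma voom, and 2 genes passed an unadjusted limit of 0.05, as did 3.81% of all genes. It was 1.91 (SE 0.49, adjusted p = 0.9999) for Gclm, from an unadjusted p-value of 0.00145 in edgeR's quasi-likelihood test, and 1.29 (SE 0.48, adjusted p = 0.9999) for Gclc, from an unadjusted p-value of 0.018. Without control unlesioned replicate 1 it was 1.39 (adjusted p = 0.743) for Gclm and 0.65 (adjusted p = 0.762) for Gclc. Beside these values, the median interaction of the marker lists was 1.67 for erythroid, 0.95 for neutrophil, 0.66 for oligodendrocyte, -0.85 for progenitor and -1.46 for fibroblast and pericyte markers, and their part was not tested. For the other 8 genes it lay between -0.54 (Gpx3) and 0.62 (Gpx4), and no difference between the genotypes in the rise of Nfe2l2, Txnrd1, Srxn1, Prdx1 or Gpx3 was detectable with 3 libraries a group.

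The pattern of each gene over the 12 libraries was then compared with all 13582 genes of at least 1 on the mean log2 CPM scale, by the root mean square difference of values centred on each gene's own mean. The libraries share their preparation and depth, so that likeness is a description. Nearest to Nfe2l2 were Bnip2 (0.06) and Etf1 (0.08), and nearest to Keap1 were Nelfcd and Opa3 (both 0.07). Gpx3 lay nearest to Gas6 (0.25), a ligand of the receptors of the TAM family, and Npl (0.29), a sialic acid lyase. Txnrd1 lay nearest to Slc11a1 (0.21), a metal transporter of phagocyte lysosomes, and Esyt1 (0.21). The nearest to Srxn1 were Thbs1 (0.40), which encodes thrombospondin 1, and Fam129b (0.42), and to Gclc Map3k7 (0.17) and Arl8a (0.18). For Gclm the nearest were Cdr2 (0.30) and Otud5 (0.32), and for Nqo1 Arpc1a (0.12) and Zswim7 (0.14). The processed pseudogene Gm21399 (0.19) and Creg1 (0.22) were nearest to Prdx1, and Gpx4-ps2 (0.05) and Ndufb10 (0.07) to Gpx4. None of the 10 genes was among the nearest of another.

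The rest of the pathway was followed with 91 genes in 6 lists, of which 89 passed the filter. Over both genotypes 27 of them rose and 2 fell after lesion, against 14.2% and 18.6% of all genes. The median log2 fold change was 0.37 beside -0.28 over all genes, which include genes with low counts. In the fit to the 17528 genes with at least 10 counts in every library, the median of all genes was 0.0039. There 1848 genes were called higher and 1743 lower, and gene values were shifted by a median of -0.29 from the main fit. The value of -0.28 is therefore not the level of well-counted genes. Without control unlesioned replicate 1 the number called was 33 in place of 29. In the control 11 rose and 2 fell, against 5.12% and 5.01% of all genes. In the mutant 0 were called by edgeR, where 0.0225% of all genes were called higher and 0.113% lower, and an unadjusted limit of 0.05 was passed by 36 with a higher and 1 with a lower level, against 15.9% and 17.9% of all genes. Between the genotypes edgeR called 0 in either condition, and the unadjusted limit was passed by 12 unlesioned, all lower in the libraries labelled mutant, and by 5 at 4dpl, against 5.22% and 6.92% of all genes.

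The counts for each list stand beside 14.2% of all genes called higher and 18.6% called lower. Of 12 regulators and partners of NRF2, 4 rose and 0 fell. Sesn1, a stress-induced sestrin, rose by 1.08 on the log2 scale (SE 0.21, adjusted p = 0.00402), from 27.3 ± 11.8 to 64.5 ± 3.78 CPM in the control and from 33.2 ± 10.4 to 63 ± 1.97 CPM in the mutant (SD, n = 3). Sqstm1, the autophagy receptor p62, which competes with NRF2 for KEAP1, rose by 0.94 (SE 0.22, adjusted p = 0.00757), and Nfe2l1, a relative of NRF2, by 0.85 (SE 0.20, adjusted p = 0.00787). The median of the list was 0.48.

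Of 17 other target enzymes and carriers of NRF2, 8 rose and 0 fell, with a median of 0.36. Hmox1, the inducible heme oxygenase, had the highest fold change, 3.26 (SE 0.59, adjusted p = 0.00336). It was at 666, 74.6 and 295 CPM in control unlesioned, 3103, 1870 and 545 CPM in control 4dpl, 56.8, 96 and 68.7 CPM in mutant unlesioned and 2107, 1451 and 268 CPM in mutant 4dpl libraries, and the control groups overlapped through unlesioned replicate 1. Cbr3, a carbonyl reductase, rose by 1.31 (SE 0.20, adjusted p = 0.0022), from 3.10 ± 0.58 to 8.21 ± 1.20 CPM in the control and from 2.89 ± 0.42 to 6.76 ± 0.72 CPM in the mutant (SD, n = 3). Akr1b8, an aldo-keto reductase, rose by 2.77 (SE 0.51, adjusted p = 0.00353) from under 2 CPM in every unlesioned library.

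Of 16 genes of glutathione synthesis, recycling and breakdown, 3 rose and 0 fell. These were Glrx3, a glutaredoxin (0.87, SE 0.15, adjusted p = 0.00299), Slc3a2, the heavy chain of the cystine carrier (0.92, SE 0.20, adjusted p = 0.00582), and Oplah, the 5-oxoprolinase that returns glutamate from glutathione breakdown (0.77, SE 0.21, adjusted p = 0.0146). Of 23 glutathione S-transferases 21 were tested, of which 3 rose and 1 fell. That share of risers was near the 14.2% of all genes called higher. Gsto1, of the omega class, rose by 0.98 (SE 0.14, adjusted p = 0.00213), from 46.6 ± 7.73 to 99.1 ± 6.31 CPM in the control and from 41.4 ± 4.31 to 75.8 ± 8.21 CPM in the mutant (SD, n = 3). Gstm2 rose by 2.43 (SE 0.40, adjusted p = 0.00274) from 0.23 to 1.11 CPM in the unlesioned libraries, and reads of the Gstm family may be split between near-identical genes. The 1 that fell, Gsta2, was at 0.11 to 0.66 CPM unlesioned and at 0 to 0.19 CPM at 4dpl.

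Of 13 other peroxidases, catalase and superoxide dismutases, 3 rose and 1 fell. Prdx4, the peroxiredoxin of the endoplasmic reticulum, rose by 1.08 (SE 0.19, adjusted p = 0.00315), Prdx3, that of mitochondria, by 0.74 (SE 0.14, adjusted p = 0.00352), and Gpx7, a glutathione peroxidase of the endoplasmic reticulum, by 1.11 (SE 0.31, adjusted p = 0.0144). The 1 that fell was Gpx2, named after its values were seen, which was at or under 0.94 CPM in every library. Of 10 other genes of the thioredoxin system, 6 rose and 0 fell, with the highest median of the lists, 0.57. Txnrd2, the mitochondrial thioredoxin reductase, rose by 0.73 (SE 0.15, adjusted p = 0.00522), and Txnl1 and Txndc17, both thioredoxin-like proteins of the cytosol, by 0.58 and 0.57 (adjusted p = 0.0102 and 0.00923).

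**Figure D5:**
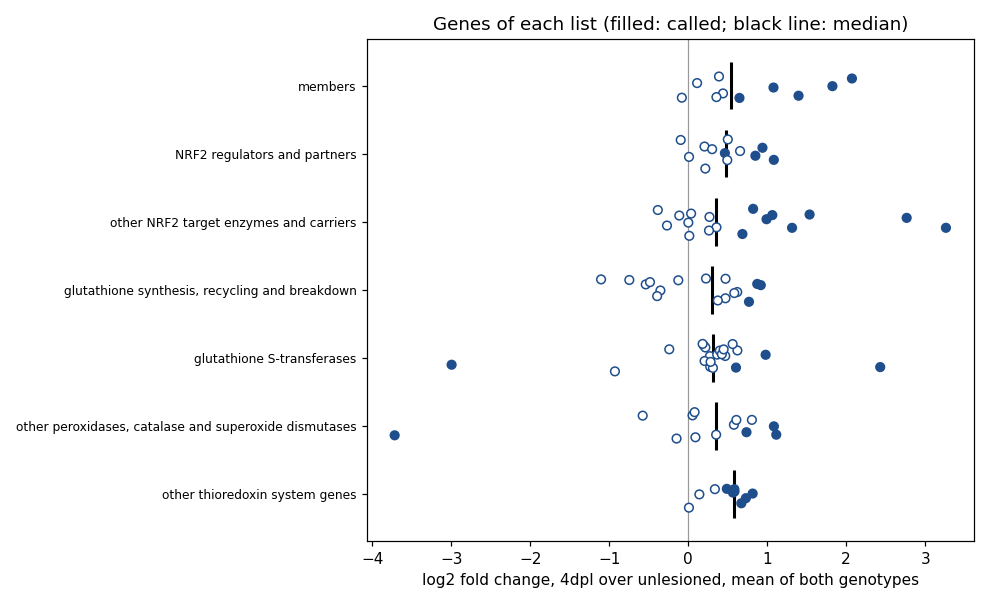
Log2 fold change at 4dpl over unlesioned, mean of both genotypes, for the 10 genes (members) and the tested genes of the 6 lists, with filled points for called genes and a black line at each median. The medians lie between 0.30 and 0.57, and Hmox1 lies farthest to the right at 3.26.

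The core letters TGACNNNGC were present in the promoter windows of 16 of the 79 listed genes with a window, or 20.3%, against 14.0% of all genes. The share was 36.4% for the regulators and partners (4 of 11), 33.3% for the other target enzymes and carriers (5 of 15), 19.0% for the glutathione S-transferases (4 of 21), and 8.33% (1 of 12), 9.09% (1 of 11) and 11.1% (1 of 9) for glutathione synthesis, the other peroxidases and the other thioredoxin genes. Of the 5 genes of the main group that rose over both genotypes, Nfe2l2, Txnrd1, Srxn1 and Prdx1 held the core and Gpx3 did not, and Gclm held it without being called.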

How the data were processed

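The deposited values of 12 libraries are whole numbers with totals that differ between libraries, and were used as raw counts. Per the methods of the study, the authors aligned reads to mm10 with BWA, counted uniquely aligned reads on exons of the Ensembl annotation of GRCm38 with featureCounts, while the submitters' processing notes name STAR and DESeq2 1.2.5. Strand use in counting is not given in the sources used here, so overlapping genes on opposite strands cannot be told apart, and 37 mitochondrial genes are at 0 counts. In R 4.3.3, edgeR 4.0.16 fitted 1 mean per group to all 12 libraries (filterByExpr, TMM, glmQLFit and glmQLFTest), with contrasts of lesion, genotype and their interaction and calls at p-values of 0.01 and, after Benjamini-Hochberg adjustment, 0.05. SEs came from the log2 fold change and F. Alternatives were DESeq2 1.42.0, limma 3.58.1 with voom and sample weights, RLE, other filters and thresholds, the groups compared only, the newer quasi-likelihood option, replicate blocks, and each library left out. Scripts were tested on simulated data. The genes and lists were chosen with earlier results of these data known. The genes named are the 10, the 3 smallest p-values over both genotypes in each list, the 2 nearest patterns for each gene, and Tet1. Also named are genes that overlap the 10 or copy them, and genes stated to be named after their values were seen. Single markers were named after their values were seen too. Marker lists of astrocytes, neurons, endothelial cells, fibroblasts, progenitors and immediate early genes were counted too. Over both genotypes 2 of 7, 0 of 7, 0 of 6, 2 of 6, 3 of 6 and 2 of 8 of their genes were called higher, and 1 neuron and 1 fibroblast marker lower.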

Additional observations from a re-analysis of the deposited data

Results flagged for a closer look

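The change after lesion differed between the genotypes for Gclm at an unadjusted p-value of 0.00145 in edgeR's quasi-likelihood test. The interaction was 1.91 on the log2 scale (SE 0.49, adjusted p = 0.9999). The lesion changes behind it were -1.04 in the control and 0.87 in the mutant. For Gclc the interaction was 1.29 (SE 0.48, adjusted p = 0.9999), with an unadjusted p-value of 0.018 in the same test, from -0.53 in the control and 0.76 in the mutant. Both fail the correction over all genes, and 3.81% of all genes passed an unadjusted limit of 0.05. Without control unlesioned replicate 1 the values were 1.39 for Gclm and 0.65 for Gclc.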

How the results depend on the processing

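Replicate numbers were not taken to pair the libraries, since the numbers of the labels and of the file headers differ. Correlations of same-numbered libraries were 0.18, 0.04 and 0.18 in the control and -0.04, 0.06 and -0.07 in the mutant. Both values of 0.18 were the highest of the control pairs. With 3 libraries a group these correlations cannot decide whether libraries were paired. A replicate block by the number of the labels gave 6 called genes in the control (Gclm among them at -0.91, adjusted p = 0.0288), 1 in the mutant (Srxn1 in place of Gpx3, whose adjusted p was 0.0554), 5 over both genotypes and 0 for the interaction or between genotypes, and not every library correlated best with its own number. With the number in the file headers as a block the counts were 4 in the control, 0 in the mutant and 4 over both genotypes, Nfe2l2 no longer among them. Of the 10 genes, 2 were called in the control as reported, and 5 with DESeq2, 1 with the groups compared only, 6 with voom, 4 with the newer quasi-likelihood option and 6 at an adjusted p of 0.10. In the mutant 1 was called as reported, and 3 with DESeq2, 3 without a filter, 2 with the groups compared only, 9 with voom, 3 with the newer option and 5 at an adjusted p of 0.10. Of all genes, 1592 were called higher in the control as reported, 2620 with DESeq2, 613 with the groups compared only and 4836 with voom. The newer option gave 2229 and the adjusted p of 0.10 gave 3292. In the mutant these numbers were 7, 1333, 40, 3495, 1374 and 2971, and 317 without a filter. Settings that called more of the 10 genes than reported also called more of all genes. At 4dpl the genotypes gave 2 calls with DESeq2 and 1 with voom. The pathway lists gave 17 calls in place of 29 with at least 10 counts in every library. This filter shifted gene values over both genotypes by a median of -0.29. The median of the 17528 genes it kept was 0.0039, beside -0.28 for the 31109 genes of the main fit. With 1 library left out the counts ranged from 1 to 6 in the control, 0 to 8 in the mutant, 5 to 6 over both genotypes, 25 to 33 for the lists and 0 to 1 between the genotypes at 4dpl, and stayed at 0 unlesioned and for the interaction. The upper end of each of these ranges other than 0 came without control unlesioned replicate 1, and for the lists also without mutant unlesioned replicate 1.

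The call of Prdx1 in the control was lost with the filter of 10 counts (1.04, adjusted p = 0.0548) and with the groups compared only (1.23, adjusted p = 0.0652). Log2 fold changes of Gpx4, Nqo1, Gclc and Gclm changed sign under some alternatives. Gpx4 in the control went to -0.0149 with DESeq2 and with RLE, -0.24 with the filter of 10 counts, -0.031 with the groups compared only and -0.086 with voom, and with 1 library left out it ranged from -0.0603 to 0.20. Nqo1 in the control went to -0.15 and Gclc over both genotypes to -0.16 with the filter of 10 counts. Gclm over both genotypes went to 0.0031 without a filter, 0.12 with voom and 0.23 with the header block, and ranged from -0.23 to 0.21 with 1 library left out. Gclc in the control went to 0.040 with the header block and ranged from -0.76 to 0.14 with 1 library left out. The cause was not tested. Fits to the groups compared only give no value for the mean of both genotypes or the interaction.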

Other observations

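At 4dpl 3 of the 10 genes, Srxn1, Txnrd1 and Prdx1, were highest in replicate 1 and lowest in replicate 3 of both genotypes, as was Hmox1, all named after their values were seen. The other 7 genes did not have this order in both genotypes. For Srxn1 the 4dpl values were 123, 69.9 and 43.6 CPM in the control and 69, 53.3 and 34.5 CPM in the mutant, and for Hmox1 3103, 1870 and 545 CPM and 2107, 1451 and 268 CPM. The summed level of the macrophage markers in the same libraries was 29870, 27920 and 22300 CPM in the control and 16120, 28380 and 12630 CPM in the mutant. Lyz2 was the highest of these markers in each library, at 11750, 24440 and 10400 CPM in mutant 4dpl. Cd68, Gpnmb, Mrc1 and Arg1 were highest in replicate 1 and lowest in replicate 3 of the mutant, but not of the control. Ms4a7, Ccr2 and F13a1 were, like Lyz2, highest in mutant replicate 2. Lyz2, Ccr2 and F13a1 fell from replicate 1 to 3 in the control. Their part was not tested. Gpx3 was at 74.2, 83.4 and 90.4 CPM in the control, the reverse order, and at 66.7, 63.8 and 49.6 CPM in the mutant. Gclc was highest in replicate 3 of both genotypes, and in the mutant Nqo1 and Gpx4 were lowest in replicate 1 and highest in replicate 3. These are descriptions of 6 libraries.

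Between the genotypes at 4dpl, 5 of the 89 other genes of the pathway passed an unadjusted limit of 0.05, all named here after their values were seen, as did 6.92% of all genes. The malic enzyme Me1 (log2 difference 1.07, adjusted p = 0.39) and the glutaredoxin Glrx5 (0.68, adjusted p = 0.511) were higher in the libraries labelled mutant, and Akr1b8 (-1.87, adjusted p = 0.513), Gstm2 (-1.52, adjusted p = 0.489) and Gstt2 (-0.69, adjusted p = 0.494) were lower. None passed the correction.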
